A study of Mus musculus with 6 samples.

Results

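The genes described here encode the membrane skeleton of the red cell and proteins that sit in or under its membrane, including carriers of blood group antigens. They are 9 listed genes, Epb42, Ank1, Sptb, Slc4a1, Kel, Gypc, Rhag, Epb41 and Tmod1, out of 53801 genes in the deposited count table, and each was found there under 1 Ensembl identifier by its GENCODE M21 symbol. RNA was sequenced from mouse fetal liver cells in 2 groups of 3 libraries. In the first group a doxycycline-inducible construct encoded FLAG-tagged Arid3a, a DNA-binding protein, and in the second the inducible construct is named LUC. Everything else in the labels was common to both groups. The cells were from E12.5-13.5 embryos of a B6J.129(Cg) strain that carries Cas9 and EGFP under the CAG promoter at Gt(ROSA)26Sor. They held a guide against Gata1 (sgGata1) and the transgene miR-125b, and had 48 h of doxycycline at 1 μg/mL. The label Gata1s refers to the short form of GATA1, a transcription factor of red cell and megakaryocyte development, so the LUC libraries are controls within an edited, transduced culture and not unmodified fetal liver.

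The red cell skeleton is a net of spectrin, a long heterodimer of an alpha and a beta chain, whose ends meet at short actin filaments. The product of Epb41 fastens spectrin to actin and to glycophorin C, and tropomodulin caps the filaments. Ankyrin ties beta spectrin to band 3, the anion exchanger encoded by Slc4a1, and the product of Epb42 joins that complex together with the Rh-associated glycoprotein. The net gives the red cell its shape and its resistance to shear, and inherited loss of its parts in people and in mice causes haemolytic anaemia with misshapen cells. Many of these genes are switched on late in erythroid development under GATA1 and KLF1, while several, among them Gypc, Epb41 and Sptb, are also transcribed in other cells.

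The libraries held 15728150 to 18249053 counts on genes. Counted as a separate entry, the Arid3a-FLAG construct took 3348, 3044 and 2758 reads where the labels place it and 0 in each LUC library. The endogenous Arid3a gene did not pass the test (log2 fold change -0.01), and the split of reads between the construct and that gene is not given. Principal component 2 of log2 levels (24.0% of the variance) set LUC library 2 apart, and its TMM factor, a correction of the library size, was 0.922 against 1.01 to 1.03 in the other libraries. Counts of calls among the 9 genes, other membrane genes, related genes and all genes are also given without LUC library 2. Those of the cell type markers are given only with it.

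Of the 9 genes, 4 rose with Arid3a-FLAG (Epb42, Kel, Sptb and Epb41), 3 did not pass the test (Gypc, Tmod1 and Rhag), and 2 were too rarely read to be tested (Ank1 and Slc4a1). Epb42 rose by 2.05 and Kel by 1.58 on the log2 scale, while Sptb and Epb41 rose 1.46-fold and 1.39-fold (0.55 and 0.48 on the log2 scale). Among all 13631 genes tested, 3.43% were higher past the same threshold, an adjusted p under 0.05 in edgeR's quasi-likelihood test, and 3.87% were lower. The 7 tested genes each had at least 22 counts in every library of both groups, so none entered the test through 1 group alone. Their median log2 fold change was 0.48, against -0.03 over all genes tested. Every Arid3a-FLAG library lay above every LUC library for 6 of the 7 and below for Rhag, where 16.6% and 16.5% of all genes tested were separated in these directions. The members were listed with results of these data known, so these counts describe the list and do not test it.

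The promoters of Kel and Epb42, the 2 genes with the largest rises, and of Rhag are shown for their contrast in direction. Rhag was lower in every Arid3a-FLAG library but did not pass the test. Each window is RefSeq sequence on GRCm38.p6 (mm10), from 250 bases before to 50 bases after the annotated start, printed 5′ to 3′ on the strand of the gene. Capitals mark words of the GATA motif, searched on both strands as the word AGATAA, the word TGATAA, the word AGATAG or the word TGATAG.
Kel, chr6:41704276-41704575, minus strand: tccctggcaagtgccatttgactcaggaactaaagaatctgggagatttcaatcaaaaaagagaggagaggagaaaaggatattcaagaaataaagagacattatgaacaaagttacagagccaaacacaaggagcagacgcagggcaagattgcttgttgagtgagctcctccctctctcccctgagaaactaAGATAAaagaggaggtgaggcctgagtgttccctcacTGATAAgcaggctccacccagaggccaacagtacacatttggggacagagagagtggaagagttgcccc
Epb42, chr2:121036828-121037127, minus strand: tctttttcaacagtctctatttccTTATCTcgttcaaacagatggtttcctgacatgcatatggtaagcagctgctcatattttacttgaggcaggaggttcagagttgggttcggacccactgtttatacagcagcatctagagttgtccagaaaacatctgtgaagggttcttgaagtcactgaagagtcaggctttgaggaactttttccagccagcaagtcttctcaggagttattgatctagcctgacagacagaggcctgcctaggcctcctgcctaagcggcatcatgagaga
Rhag, chr17:40810899-40811198, plus strand: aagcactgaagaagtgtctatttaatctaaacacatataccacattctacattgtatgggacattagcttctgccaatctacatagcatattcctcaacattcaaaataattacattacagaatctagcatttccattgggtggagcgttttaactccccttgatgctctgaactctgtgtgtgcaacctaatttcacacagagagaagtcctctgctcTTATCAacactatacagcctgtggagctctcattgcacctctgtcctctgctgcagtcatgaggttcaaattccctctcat

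Kel held 2 GATA words, their first bases at -56 and -19 from the start site, and Rhag held 1 at -31 on the opposite strand. Epb42 held 1 at -226, also on the opposite strand. The GENCODE M21 gene of Epb42 starts farther upstream, at 121037072, and its word lies nearer to that start. The distance for Epb42 therefore depends on the annotation. Promoter windows are reported for 6 of the 9 genes, 8 windows in all because Epb41 has 3. None was found for Ank1 or Slc4a1, and Gypc is not reported here and is left out of the motif counts. A GATA word occurred in 6 of the 8 windows and in 29.8% of all 32817 promoter windows in the same table. The word CCNCNCCC, a pattern bound by KLF factors, occurred in 4 of the 8 windows and in 49.5% of all, and it was found in the GC-rich windows of Sptb, Epb41 and Tmod1 and not in those of Kel, Epb42 or Rhag. The word ATTAAA or the word ATCAAA, forms of the AT-rich motif reported for ARID3A, occurred in 3 of the 8 windows and in 22.9% of all: once each in Kel, in Rhag and in 1 window of Epb41. Words of the same motif can overlap one another, and no match of one motif overlapped a match of another in the 8 windows. A match describes letters only. Kel, which rose, and Rhag, which was lower but did not pass the test, both carried a GATA word near the start.

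**Figure D1:**
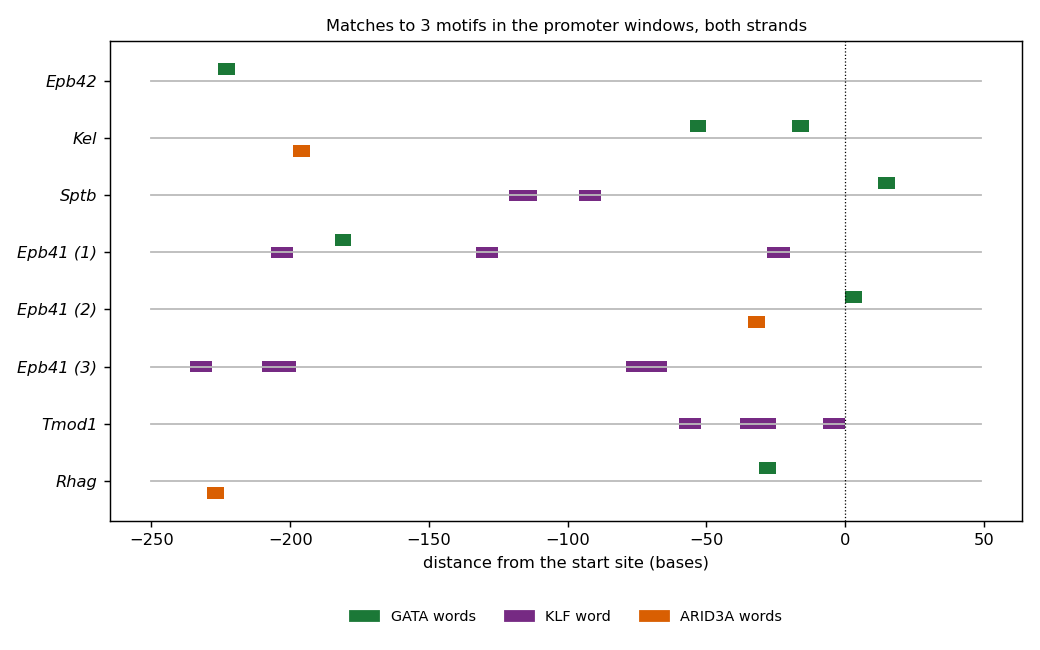
Positions of the motif words in the 8 promoter windows, as distance from the annotated start site in bases (dotted line at 0), with Epb41 shown once for each of its 3 windows. GATA words lie close to this start in Kel and Rhag and far from it in Epb42. The GENCODE M21 start of Epb42 lies farther upstream and nearer to its word. KLF words occur in Sptb, 2 windows of Epb41 and Tmod1.

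Read per length of exon, the 9 genes ran over more than 3 orders of magnitude. Levels between genes are compared as CPM, the count scaled to the TMM-adjusted size of its library, divided by the kilobases of merged annotated exons. Gypc was the highest at 57.9 ± 5.74 with Arid3a-FLAG and 47.4 ± 2.20 with LUC (CPM per kilobase, SD, n = 3). Epb41 followed at 21.6 ± 0.981 and 15.5 ± 1.74 in these groups, and Sptb at 15.0 ± 1.47 and 10.3 ± 1.58. In the LUC libraries Tmod1 (4.93 ± 0.326), Rhag (4.40 ± 0.517) and Kel (4.17 ± 0.764) came next, and these neighbours overlapped in their library values. In the Arid3a-FLAG libraries the same 3 genes were apart, with Kel at 12.1 to 13.1, Tmod1 at 5.81 ± 0.279 and Rhag at 3.04 ± 0.103. Epb42 was lower than these in both groups, at 1.33 ± 0.0651 with Arid3a-FLAG and 0.319 ± 0.0466 with LUC. Ank1 stood at 0.0122 ± 0.00726 and 0.0200 ± 0.00758 in the 2 groups, and Slc4a1 had no read at all. Other neighbours in the order did not overlap. The merged exon length counts every annotated exon, used or not, so levels of genes with long alternative ends, such as Epb41 and Ank1, are understated.

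**Figure D2:**
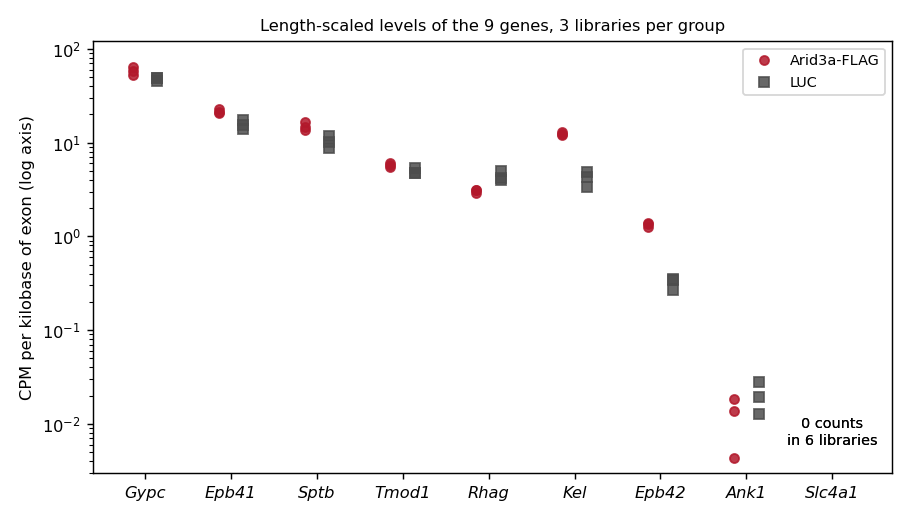
Length-scaled level of each gene in each library, as CPM per kilobase of merged exon on a log axis, with Arid3a-FLAG (circles) to the left of LUC (squares). Kel lies at 12.1 to 13.1 with Arid3a-FLAG and at 3.35 to 4.86 in LUC, where its range overlaps those of Tmod1 and Rhag, and Ank1 and Slc4a1 lie far below the other 7 genes.

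RNA of Sptb and of Epb41, whose products form the body of the net together with actin, rose modestly. Sptb (ENSMUSG00000021061, chromosome 12, 76580488 to 76710547, minus strand) encodes erythroid beta spectrin. It had 201.3, 165.9 and 179.4 CPM in the Arid3a-FLAG libraries and 123.8, 106.1 and 144.4 CPM in the LUC libraries. The groups did not overlap, with LUC library 2 the lowest and Arid3a-FLAG library 1 the highest. The log2 fold change was 0.55 (SE 0.12, 95% interval 0.27 to 0.82, adjusted p = 0.0255). Epb41 (ENSMUSG00000028906, chromosome 4, 131923413 to 132075321, minus strand) had 339.9, 361.9 and 331.7 CPM with Arid3a-FLAG and 244.6, 220.8 and 276.0 CPM with LUC. It was the most read of the 9 genes per library, with 5284 to 6234 counts with Arid3a-FLAG and 3376 to 5113 with LUC, and its groups did not overlap either. The log2 fold change was 0.48 (SE 0.10, 95% interval 0.25 to 0.71, adjusted p = 0.0218). Both calls were lost in 4 of the 6 fits with 1 library left out. Over the 6 fits the log2 fold change was 0.45 to 0.69 for Sptb and 0.42 to 0.59 for Epb41. Without Arid3a-FLAG library 1, 2 or 3, or without LUC library 1, neither gene passed, with adjusted p of 0.135, 0.0619, 0.0691 and 0.0813 for Sptb and 0.103, 0.129, 0.0588 and 0.0667 for Epb41. In the same 4 fits 115, 131, 209 and 189 of all genes were called higher, against 467 with all libraries.

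Tmod1 (ENSMUSG00000028328, chromosome 4, 46038935 to 46116032, plus strand) encodes tropomodulin-1, the cap of the short actin filaments. It had 24.1, 21.9 and 22.9 CPM with Arid3a-FLAG and 20.9, 18.8 and 18.6 CPM with LUC, close values that nonetheless did not overlap. The log2 fold change of 0.24 (95% interval -0.01 to 0.48, SE 0.11) had an adjusted p of 0.204 and did not pass, and a rise of up to 0.48 is within the interval. Exons of Tmod1 share 1287 bases with Tstd2 on the opposite strand, and whether counting used strand is not given, so its value is uncertain. Tstd2 itself stood at 32.6 to 38.1 CPM with Arid3a-FLAG and 24.3 to 29.6 CPM with LUC (log2 fold change 0.38, adjusted p = 0.072). Sptb shares 1 base with Plekhg3, and Epb41 shares 91 and 142 bases with the opposite-strand genes Gm13063 and Gm10300, which had under 1 CPM in every library.

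Beside these, the other skeleton genes gave no call. Of 12 listed partners 11 were tested and none passed in edgeR (an unadjusted p under 0.05 was reached by 2 higher and 1 lower gene, and DESeq2 called 1 lower and limma-voom 0). The largest log2 fold changes among them were 0.29 for Sptan1, the alpha spectrin of most other cells (adjusted p = 0.0931), 0.28 for Add3, a gamma adducin (0.0916), and -0.37 for Mpp1, the erythrocyte palmitoylated membrane protein (0.0544). Add2, the beta adducin of red cells, was at 1.34 CPM or less in every library, and Dmtn, which encodes the actin-bundling dematin, was not tested at 0.458 CPM or less.

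The complex that anchors the net through ankyrin was read in part. Slc4a1 (ENSMUSG00000006574, chromosome 11, 102348824 to 102366203, minus strand) had 0 counts in all 6 libraries. An approximate upper limit of 3 counts, not a strict maximum, was set for a count of 0. By that limit the level of Slc4a1 could be up to 0.188 CPM in an Arid3a-FLAG library and up to 0.196 CPM in a LUC library. Ank1 (ENSMUSG00000031543, chromosome 8, 22974844 to 23150497, plus strand), erythroid ankyrin, had 3, 1 and 4 counts with Arid3a-FLAG and 3, 4 and 7 with LUC. These few reads give a ratio of 0.593 between the groups with a counting interval of 0.216 to 1.51, so no difference was detectable at this depth. Such intervals and limits cover counting error only. Ank1 shares 862 bases with Gm15816 on the opposite strand, which had no read.

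Epb42 (ENSMUSG00000023216, chromosome 2, 121017891 to 121037072, minus strand), whose product binds band 3 and ankyrin, was read despite the near absence of both partners' transcripts. It had 7.45, 6.79 and 7.35 CPM with Arid3a-FLAG and 1.91, 1.44 and 1.84 CPM with LUC. The lowest Arid3a-FLAG library was more than 3 times the highest LUC library. The rise was 2.05 on the log2 scale (SE 0.20, 95% interval 1.60 to 2.50, adjusted p = 0.000434), and it rests on 117 to 120 counts per Arid3a-FLAG library and 22 to 34 per LUC library. It passed whichever library was left out, with log2 fold changes of 1.95 to 2.14. The product of Epb42 is a relative of the transglutaminases that has no enzyme activity. Among the enzymes of that family, Tgm2 rose to 10.3 ± 0.511 CPM with Arid3a-FLAG, against 4.30 ± 1.61 CPM with LUC (log2 fold change 1.25, adjusted p = 0.0121), and Tgm1 did not pass. The call of Tgm2 was lost without Arid3a-FLAG library 1 or LUC library 1 (adjusted p up to 0.0637). Its exons share 370 bases with Rprd1b and 633 with Gm20412 on the opposite strand.

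Rhag (ENSMUSG00000023926, chromosome 17, 40811126 to 40840754, plus strand) encodes the Rh-associated glycoprotein, a channel protein needed for Rh antigens at the surface. It had 7.26, 7.26 and 6.84 CPM with Arid3a-FLAG and 11.7, 9.74 and 9.45 CPM with LUC, the only tested member below LUC in every library. The log2 fold change of -0.53 (SE 0.15, 95% interval -0.87 to -0.19) did not pass (adjusted p = 0.0637). It passed without LUC library 2 (adjusted p = 0.0352) and in DESeq2 (0.0483). Its partner Rhd was at 0.310 to 0.406 CPM with Arid3a-FLAG and 0.432 to 1.21 CPM with LUC and was not tested.

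**Figure D3:**
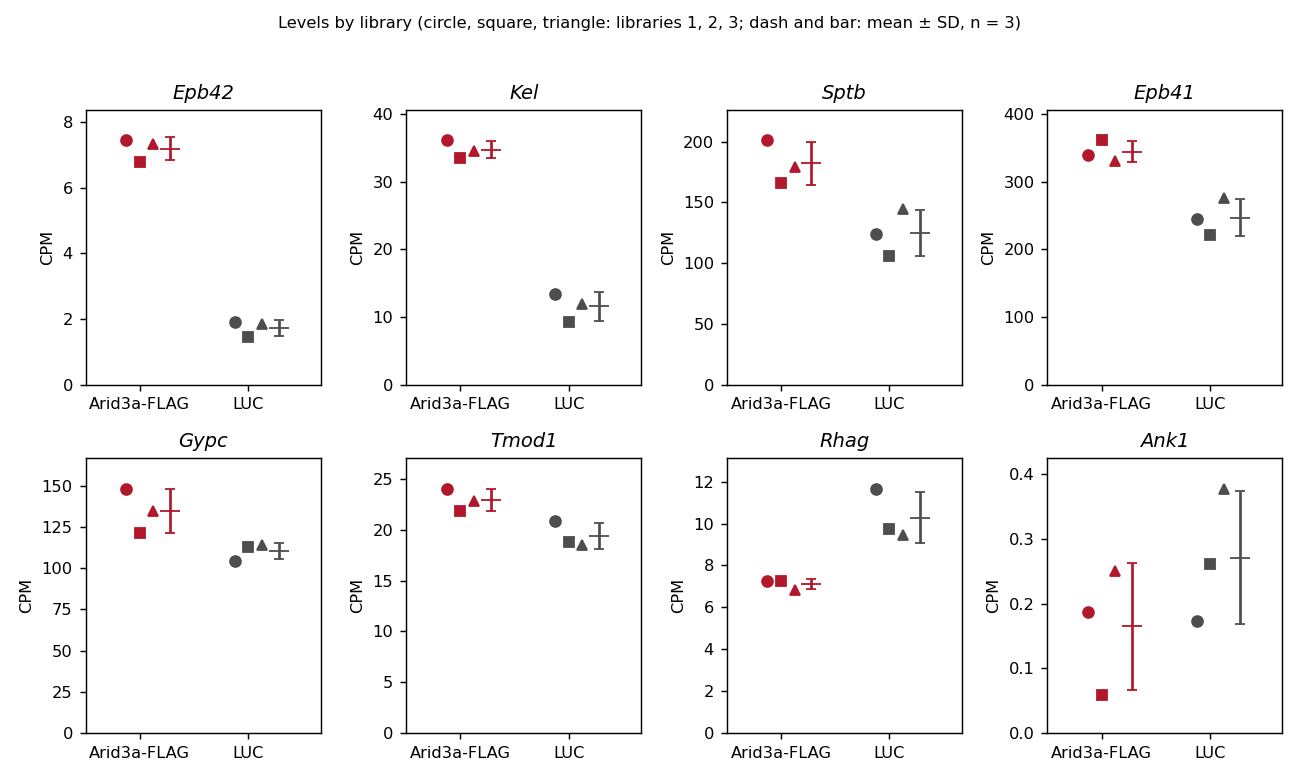
CPM of 8 of the 9 genes in each library, Arid3a-FLAG left of LUC, with the mean and SD of 3 libraries beside the points (Slc4a1, with 0 counts throughout, is left out). Every axis starts at 0. Epb42 and Kel are set far apart by group, Sptb, Epb41, Gypc, Tmod1 and Rhag by a narrow margin, and Ank1 overlaps.

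Among carriers of blood group antigens, Kel changed most. Kel (ENSMUSG00000029866, chromosome 6, 41686330 to 41704339, minus strand) encodes the Kell glycoprotein, a zinc endopeptidase anchored in the membrane. It had 36.2, 33.6 and 34.6 CPM with Arid3a-FLAG and 13.5, 9.29 and 12.0 CPM with LUC. The 3 Arid3a-FLAG libraries were close to one another, and LUC library 2 was again the lowest. The rise was 1.58 on the log2 scale (SE 0.14, 95% interval 1.28 to 1.89, adjusted p = 0.000239), and it passed in each of the 6 fits with 1 library left out (1.47 to 1.72). Xk, the membrane protein to which Kell is bound by a disulfide bond, had 36.9 ± 2.23 CPM with Arid3a-FLAG and 31.0 ± 1.52 CPM with LUC and did not pass (log2 fold change 0.25, adjusted p = 0.146). The intervals of Kel and Epb42 lie above those of the other 5 tested members.

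Gypc (ENSMUSG00000090523, chromosome 18, 32528322 to 32560034, minus strand) encodes glycophorin C, which carries the Gerbich antigens in people. It had 148.3, 121.6 and 134.9 CPM with Arid3a-FLAG and 104.5, 112.7 and 113.9 CPM with LUC. The groups were separated by less than the spread within the Arid3a-FLAG group. Its log2 fold change of 0.29 (SE 0.10, 95% interval 0.08 to 0.50) did not pass (adjusted p = 0.0947), although it did without LUC library 2 (0.0254).

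Over 51 further genes of the red cell membrane, taken from lists of skeleton partners, integral proteins and blood group carriers, 45 were tested. Of these, 3 rose, 4 fell and 38 did not pass, with a median log2 fold change of 0.01. Both directions occurred within the list of blood group carriers. Art4, an ADP-ribosyltransferase that carries the Dombrock antigens in people, rose to 16.3 ± 1.43 CPM, against 7.36 ± 0.507 CPM with LUC (log2 fold change 1.15, adjusted p = 0.00122). Cd55, the complement regulator with the Cromer antigens, fell to 28.9 ± 0.295 CPM, against 44.5 ± 6.88 CPM with LUC (-0.62, adjusted p = 0.0144), and Emp3, a small membrane protein, fell by 0.47 on the log2 scale (adjusted p = 0.0377). Ackr1, Slc14a1 and Smim1 were among the 11 of 14 tested genes of this list that did not pass. The list does not hold every carrier: Cd44, for example, stands among the integral proteins. Icam4 had no read, but all 1110 bases of its exons are shared with Gm47079 on the opposite strand. Whether counting used strand is not given, so the 0 of Icam4 is uncertain. Bcam stood at 0.232 CPM or less.

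Of 21 tested integral membrane proteins, 3 rose, 2 fell and 16 did not pass. Besides Art4, which stands in both lists, Cd44, an adhesion receptor with the Indian antigens, rose by 0.40 (adjusted p = 0.0257) and the nucleotide exporter Abcc4 by 0.39 (0.0368). Aqp1, which encodes a water channel, had 3.10 ± 0.435 CPM with Arid3a-FLAG and 6.71 ± 1.62 CPM with LUC, a fall that passed (adjusted p = 0.0192), and the nucleoside transporter Slc29a1 fell by 0.53 (0.032). Of these 7 calls over the 3 lists, that of Art4 was kept in each fit with 1 library left out. Those of Cd44, Aqp1, Slc29a1, Abcc4, Cd55 and Emp3 were all lost when LUC library 1 was left out, and likewise Arid3a-FLAG library 1 or 2, each in 3 to 5 of the 6 fits. Without LUC library 2, 9 of the 51 rose and 8 fell. Cd55 and Slc29a1 overlap other genes on the opposite strand by 102 and 275 bases.

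**Figure D4:**
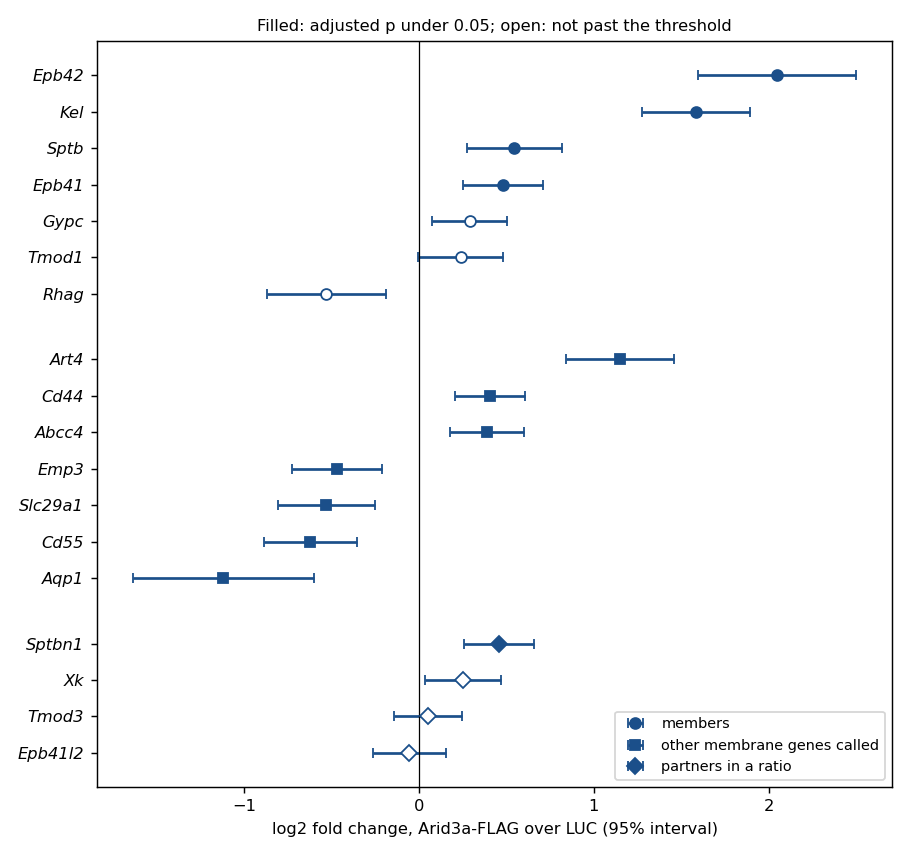
Log2 fold change, Arid3a-FLAG over LUC, with its 95% interval for the 7 tested members (circles), the 7 other membrane genes past the threshold (squares) and the partners used in ratios (diamonds). Filled symbols passed the threshold. Epb42 at 2.05 and Kel at 1.58 lie to the right of all others shown, and Aqp1, at -1.12, lies farthest to the left.

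Relatives of the members that serve other cells were present, some at higher levels than the red cell form. Of 30 listed relatives 16 were tested: 2 rose, 1 fell and 13 did not pass. Sptbn1, the general beta spectrin, rose to 302.5 ± 8.69 CPM with Arid3a-FLAG, against 220.4 ± 16.6 CPM with LUC (log2 fold change 0.46, SE 0.09, adjusted p = 0.0162). It lost its call in 4 of the 6 fits with 1 library left out, the same 4 libraries as for Sptb and Epb41 (adjusted p up to 0.105), and its exons share 134 bases with the opposite-strand gene Gm29237. Epb41l4b, a relative of Epb41, fell to 2.68 ± 0.302 CPM, against 8.37 ± 0.982 CPM with LUC (-1.64, adjusted p = 0.000942), in all 6 such fits. Slc4a2, the widely used anion exchanger, stood at 37.4 ± 0.770 CPM with Arid3a-FLAG and 28.9 ± 2.58 CPM with LUC where Slc4a1 had no read (log2 fold change 0.37, adjusted p = 0.0549). Its exons overlap Fastk and Gm22333 on the opposite strand. Ank2 and Ank3, the other ankyrins, were at 0.683 CPM or less, so no ankyrin gene was well read.

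Ratios of length-scaled counts within a library, which no scaling of library size can alter, were compared for 4 pairs. The ratio of Epb41 to Epb41l2, its closest widely expressed relative in these cells, was 2.47, 2.70 and 2.40 with Arid3a-FLAG and 1.86, 1.64 and 1.74 with LUC. Kel to Xk gave 1.78, 1.58 and 1.83 with Arid3a-FLAG and 0.784, 0.582 and 0.682 with LUC. In these 2 pairs the groups did not overlap. On the log2 scale the differences were 0.53 for Epb41 to Epb41l2 and 1.35 for Kel to Xk, each with p = 0.1 in a two-sided exact permutation test, the smallest that 3 against 3 libraries allow, and 0.2 after adjustment over the 4 pairs. Sptb to Sptbn1 overlapped, at 0.931, 0.792 and 0.879 with Arid3a-FLAG and 0.816, 0.746 and 0.875 with LUC (difference 0.09, exact p = 0.4). Tmod1 to Tmod3 also overlapped, at 0.561, 0.524 and 0.531 with Arid3a-FLAG and 0.556, 0.451 and 0.423 with LUC (difference 0.19, exact p = 0.3). No ratio was formed for Ank1 to Ank3 or Slc4a1 to Slc4a2, where a library had under 3 counts.

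**Figure D5:**
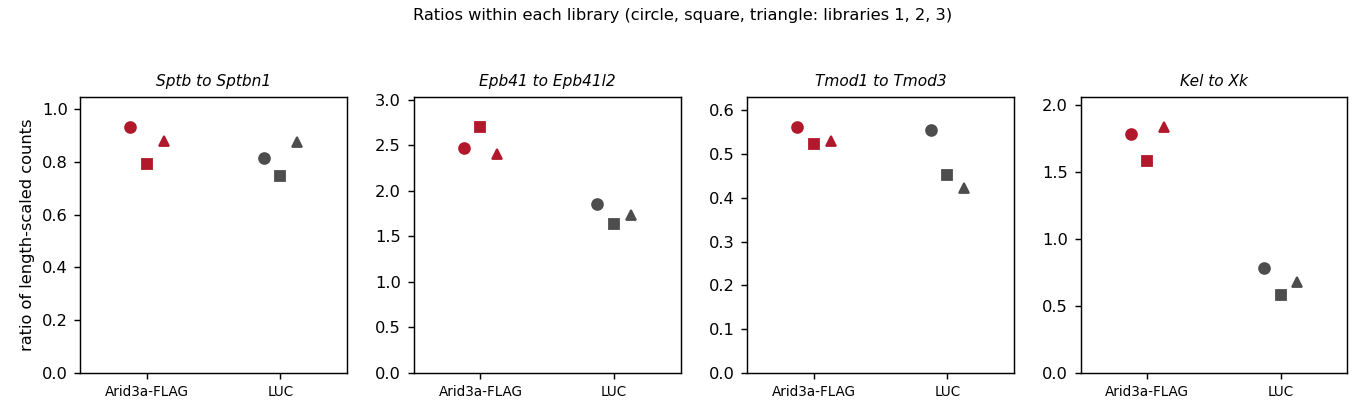
Ratio of length-scaled counts of a member to a partner or relative in each library, Arid3a-FLAG left of LUC, axes from 0. Kel to Xk is at 1.58 to 1.83 with Arid3a-FLAG and 0.582 to 0.784 with LUC, and the groups overlap for Sptb to Sptbn1 and Tmod1 to Tmod3.

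The mean profile of the 7 tested members over the 6 libraries, as log2 CPM centred on each gene, was 0.40, 0.28 and 0.32 with Arid3a-FLAG and -0.25, -0.47 and -0.27 with LUC. By root mean square distance over the 6 libraries, Sptb (0.108) and Epb41 (0.124) lay nearest to it among the members, and Rhag (0.597) and Epb42 (0.669) farthest. Of 10275 other genes of at least 5 CPM, the nearest were Mef2c (0.0326), Cep76 (0.0483), Trove2 (0.0487), Tarsl2 (0.0558) and Senp5 (0.0567). Mef2c, a transcription factor gene, had 268.4, 247.2 and 244.3 CPM with Arid3a-FLAG and 173.3, 142.6 and 173.7 CPM with LUC.

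The levels of other cell type markers give the setting. Alas2, the erythroid enzyme of haem synthesis, was at 0.406 CPM or less with Arid3a-FLAG and 0.432 CPM or less with LUC. Globin genes of the same erythroid list were read. The alpha globin gene Hba-a1 rose to 140.8, 96.1 and 119.6 CPM with Arid3a-FLAG, against 26.7, 40.9 and 26.4 CPM with LUC (log2 fold change 1.93, SE 0.19, adjusted p = 0.000415). Hba-a2, a near-identical copy whose reads may be split with Hba-a1, rose by 2.91 on the log2 scale. The embryonic Hba-x passed at 1.34 to 1.95 CPM with Arid3a-FLAG and 0.116 CPM or less with LUC. With 2, 1 and 2 counts in the LUC libraries, Hba-x entered the test only through the Arid3a-FLAG group. Hba-a2 had 12, 16 and 5 counts with LUC and may have entered in the same way. The beta globin gene Hbb-bt had 90.9 to 115.4 CPM with Arid3a-FLAG and 80.2 to 107.4 CPM with LUC and did not pass. Hbb-bs (log2 fold change 0.72, adjusted p = 0.0771), Hbb-y (1.07, 0.0577) and Hbb-bh1 (-0.01, 0.973) did not pass either. The groups did not overlap for Hbb-y. Of 30 tested erythroid genes outside the membrane lists 5 rose in edgeR (the 3 alpha-like globin genes, Fech and Trim58) and 2 fell (Tfr2 and Car1). DESeq2 called 8 higher and 2 lower, and limma-voom 5 higher and 1 lower. In edgeR an unadjusted p under 0.05 was reached by 10 higher and 2 lower genes. The list summed to 2783 to 3094 CPM with Arid3a-FLAG and 2601 to 2814 CPM with LUC. Of 16 megakaryocyte genes 6 rose and 1 fell, and 13 had a log2 fold change above 0 (median 0.52, against 0.48 for the tested members). Their sums, mostly Pf4 and Itga2b, were 7304 to 7846 CPM with Arid3a-FLAG and 6758 to 8504 CPM with LUC. Of 9 tested mast cell and basophil genes none rose and 3 fell in edgeR (an unadjusted p under 0.05 was reached by 0 higher and 5 lower genes, and DESeq2 and limma-voom each called 0 higher and 4 lower), with sums of 2152 to 2925 CPM with Arid3a-FLAG and 3018 to 3574 CPM with LUC, which do not overlap. The 8 lymphoid markers, mostly Nkg7 and Il7r, summed to 7.20 to 8.10 CPM with Arid3a-FLAG and 29.8 to 41.3 CPM with LUC, and 2 of the 3 tested fell. Neutrophil and monocyte markers summed to 35.9 to 54.9 CPM with Arid3a-FLAG and 37.6 to 42.1 CPM with LUC, and of 7 tested 1 rose and 2 fell. Macrophage markers summed to 0.816 CPM or less in every library, with Vcam1 and Marco at 0 counts. Hepatocyte markers, nearly all of it Afp, summed to 16.3 to 20.4 CPM with Arid3a-FLAG and 20.3 to 27.3 CPM with LUC, and Ttr and Serpina1a were at 0. Afp, the only one tested, did not pass. Endothelial and stromal markers summed to 148.9 to 177.0 CPM with Arid3a-FLAG and 168.9 to 198.0 CPM with LUC, mostly Pecam1 and Tie1, which megakaryocytes and progenitors also express, and Cdh5, Col3a1 and Dcn were at 0. Of the 4 tested, 1 rose and 1 fell. The part of these shifts in the values of the 9 genes was not tested, and in bulk RNA a change in the share of cells of a type and a change in RNA per cell cannot be told apart.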

How the data were processed

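The authors deposited 1 table of whole-number read counts per gene, not normalized, with 6 columns matched to the samples by their descriptions. Per the submitters' processing notes, mm10 was the build and featureCounts, fastp and HISAT2 2.0.5 were used. Their settings, the annotation release and strand use are not stated. The construct's row entered neither library sizes nor tests. Symbols, coordinates and merged exon lengths came from GENCODE M21 (GRCm38), and 181 identifiers had no match. Counts were tested with edgeR 4.0.16 in R 4.3.3: filterByExpr defaults, TMM factors, glmQLFit and glmQLFTest on group, two-sided, Benjamini-Hochberg over 13631 genes. Standard errors are the log2 fold change over the square root of F. Ratios added 0.5 counts to each gene. Some items are not reported here, and lists and ratios are counted without them. The fit was tested on simulated data. All members are named, with every gene past the threshold in the membrane and relative lists, every partner in a ratio, and the 5 nearest profiles. Sptan1, Add3, Mpp1, Add2, Dmtn, Rhd, Tgm1, Slc4a2, Ank2, Icam4, Bcam, Ackr1, Slc14a1, Smim1 and the marker genes were named after their values were seen. The members and lists were chosen with earlier results of these data known. Alternatives covered RLE factors, other filters, DESeq2 1.42.0, voom in limma 3.58.1, a replicate block, a threshold of 0.01, 20 abundant genes left out, and each library left out. Nothing in the labels says that replicates are separate animals or cultures. The p-values therefore reflect spread among these libraries, which may be technical. Precision is limited by 3 libraries per group and, for Ank1 and Slc4a1, by depth.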

Additional observations from a re-analysis of the deposited data

How the results depend on the processing

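Epb42 and Kel kept their direction and their call under every alternative tried, and the tested members kept their direction throughout. Sptb and Epb41 kept theirs under RLE factors, both other filters, DESeq2, limma-voom, the replicate block and with 20 abundant genes left out, but each lost its call in 4 of 6 fits with 1 library left out. Members called higher numbered 2 to 5 and lower 0 to 1 in those fits, other membrane genes 1 to 9 and 0 to 8, relatives 0 to 4 and 1, and all genes 115 to 1191 and 118 to 1095, with the highest counts without LUC library 2. At an adjusted p under 0.01, 2 members, 1 other membrane gene and 0 relatives were higher, 0 other membrane genes were lower, and 125 and 137 of all genes were higher and lower. With no filter on low counts 5 other membrane genes were higher, and of all genes 869 were higher and 1076 lower. DESeq2 called 771 genes higher and 1 member, Rhag, lower. The causes were not tested. With 1 library left out the ratio differences ran from 0.03 to 0.16 (Sptb to Sptbn1), 0.48 to 0.58 (Epb41 to Epb41l2), 0.11 to 0.30 (Tmod1 to Tmod3) and 1.24 to 1.46 (Kel to Xk). Same-numbered libraries of the 2 groups deviated together with correlations of -0.10, -0.11 and 0.12 across genes, so the numbers were not taken as pairs. The replicate block gave 410 genes higher and 530 lower, with 4 members higher. Only Arid3a-FLAG library 3 correlated best with its own number. Arid3a-FLAG libraries 1 and 2 did so with LUC libraries 2 and 1 (0.208 and 0.096). Depth limits Ank1 and Slc4a1, for which no change could be seen.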
